A study of Mus musculus with 7 samples.

Results

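The transcripts of the metallothioneins Mt1, Mt2 and Mt3, of the transcription factor Mtf1 and of the zinc exporter Slc30a1 were followed in single mouse embryos from a diabetic and a normal pregnancy. The members are all probe sets that the array annotation assigns to these 5 genes, which gave 7 of the 22690 probe sets on the array. They were picked with the difference between exposed and control embryos known, chiefly the higher Mt2 signal of exposed embryos, so that every value of exposed against control embryos for a member is a description without a test. The comparison of exposed embryos with and without a neural tube defect (NTD) was not used in the choice and was tested.

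Whole embryos of the inbred FVB strain were collected at embryonic day 10.5 and each was hybridized to its own Affymetrix 430A 2.0 array. The controls were 2 embryos of a normal pregnancy. The exposed embryos were 5 from a pregnancy made diabetic with streptozotocin, a toxin of the insulin-producing beta cells, given to a female aged 7 to 9 weeks whose blood glucose exceeded 250 mg/dl. No malformation was identified in 3 exposed embryos, and the other 2 had NTDs. All exposed embryos came from 1 treated dam and both controls from 1 untreated dam, so that diabetes, streptozotocin and litter cannot be told apart, and every p-value is set against the spread between littermates. By the sex chromosome transcripts given below, the groups also differed in sex. Signals are linear MAS5 intensities that the authors scaled per array, and the mean after removal of the highest and lowest 2% of probe sets was 500.0 on all 7 arrays. The 3′ to 5′ signal ratio, a measure of cDNA length, was 0.788 to 0.915 for the Gapdh control probe sets and 1.05 to 1.17 for those of actin. Exposed embryo 1 without NTD stood apart in transcripts of yolk sac endoderm and liver, and the main values are given with and without it.

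Metallothioneins are small cysteine-rich proteins that bind zinc and copper and also take up reactive oxygen species. Mt1 and Mt2 are made in most tissues, with high levels in the visceral yolk sac and the fetal liver, while Mt3 is known chiefly from the brain. Free zinc activates MTF-1, the protein of Mtf1, which binds metal response elements in the promoters of Mt1, Mt2 and Slc30a1. Glucocorticoids and oxidative stress also induce Mt1 and Mt2.

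Mt1, Mt2 and Mt3 lie side by side on chromosome 8 in the RefSeq annotation of GRCm38.p6, Mt3 at chr8:94152607-94154148, Mt2 at chr8:94172618-94173567 and Mt1 at chr8:94178883-94180327. The end of Mt2 is 5316 bases from the start of Mt1, and the end of Mt3 is 18470 bases from the start of Mt2. Mtf1 lies at chr4:124802549-124849800 and Slc30a1 at chr1:191906697-191913248. The promoters of Mt2 and Mt1 are shown because these are the members with the highest ratios of exposed to control signal above the filter on low signals. The 250 bases before the annotated start of a transcript (chr8:94172368-94172617 for Mt2 and chr8:94178839-94179088 for Mt1, both on the plus strand) are followed by the 30 bases from that start on. For Mt1 this start, at base 94179089, lies inside the gene as annotated, which begins further upstream. The same holds for the start of Slc30a1 used below, at base 191906781. Capitals mark metal response element cores, TGCACNC or TGCGCNC on either strand.
Mt2, before the start: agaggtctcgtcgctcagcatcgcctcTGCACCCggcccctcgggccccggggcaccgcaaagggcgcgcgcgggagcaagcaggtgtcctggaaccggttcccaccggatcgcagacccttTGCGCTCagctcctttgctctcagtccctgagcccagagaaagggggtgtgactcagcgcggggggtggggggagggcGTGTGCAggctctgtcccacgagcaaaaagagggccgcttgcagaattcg
Mt2, after the start: ggtcGTGCGCAggcccaggggcgtgtgctg
Mt1, before the start: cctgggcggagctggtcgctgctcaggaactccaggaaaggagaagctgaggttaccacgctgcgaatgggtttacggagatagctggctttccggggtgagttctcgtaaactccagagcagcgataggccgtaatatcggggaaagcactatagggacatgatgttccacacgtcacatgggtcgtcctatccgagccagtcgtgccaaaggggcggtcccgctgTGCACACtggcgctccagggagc
Mt1, after the start: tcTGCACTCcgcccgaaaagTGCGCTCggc

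In windows of 300 bases, 250 before and 50 after the start, Mt2 held 4 metal response element cores and Mt1 held 3. In Mt2 they lay at -223 to -217, at -128 to -122, at -50 to -44 and at 5 to 11, counted from 1 at the start, the last 2 on the other strand. In Mt1 they lay at -23 to -17, at 3 to 9 and at 21 to 27. Slc30a1 held 2, Mt3 held 1 at 28 to 34, and none was found in the window of Mtf1. Of 32851 promoter windows of this length, 25.7% held at least 1 such core, 7.11% at least 2, 1.97% at least 3 and 0.517% at least 4. An antioxidant response element core, TGACNNNGC on either strand, was found in Mt2 (-79 to -71) and in Slc30a1 (-82 to -74), and in 12.4% of all windows. Hypoxia response element cores, ACGTG or GCGTG on either strand, numbered 2 in Mt2, 2 in Mt1 and 1 in Slc30a1, and 43.8% of all windows held at least 1. One of those in Mt2, at -52 to -48, overlaps the metal response element core at -50 to -44, and that in Slc30a1, at -75 to -71, overlaps the antioxidant response element core. These matches describe letters only and say nothing of binding in the embryos. Where transcription starts in the embryos was not tested. Cores outside the windows were not counted, so the numbers for Mt1 and Slc30a1 depend on the start used.

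**Figure D1:**
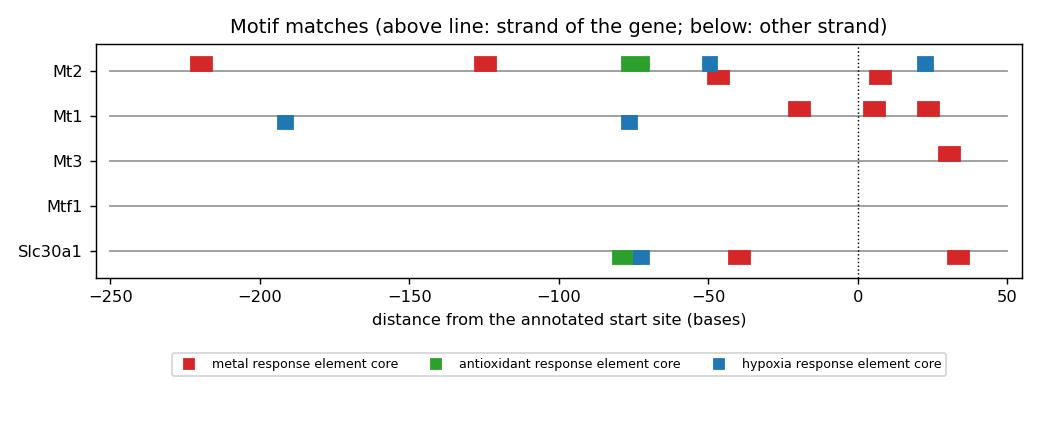
Matches of 3 motif cores around the annotated start of each of the 5 genes, with the distance from the start in bases on the x axis, matches on the strand of the gene above each line and on the other strand below it. The metal response element cores number 4 in Mt2, 3 in Mt1, 2 in Slc30a1, 1 in Mt3 and 0 in Mtf1.

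Mt2 had higher signals in all 5 exposed embryos than in either control. Its probe set (1428942_at) gave 1251 and 1301 in controls 1 and 2. It gave 5776, 4116 and 3811 in exposed embryos 1, 2 and 3 without NTD. Embryos 1 and 2 with NTD had 3556 and 4767. The lowest exposed embryo thus lay 2.73-fold above the highest control. The mean signal was 1276 ± 35.3 (SD, n = 2) for controls against 4405 ± 890 (SD, n = 5) for the exposed, a ratio of 3.45 and a log2 difference of 1.77 (standard error 0.17). Without exposed embryo 1 without NTD the exposed mean was 4062 ± 523 (SD, n = 4) and the ratio 3.18. Each exposed embryo had 2.79 to 4.53 times the mean of the controls. Of the 14554 probe sets tested, 8 had a larger positive log2 difference.

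Mt1 had the same order of groups, with a wider spread. Its brighter probe set (1422557_s_at) gave 1178 and 963 in the controls, 5092, 2500.3 and 3114 in the exposed embryos without NTD, and 1953 and 3049.6 in those with NTD. The lowest exposed embryo was 1.66-fold above the highest control, so that the groups did not overlap here either. The mean signal was 1070.3 ± 152 (SD, n = 2) for controls against 3142 ± 1187 (SD, n = 5) for the exposed, a ratio of 2.94 and a log2 difference of 1.49 (standard error 0.28). Without exposed embryo 1 without NTD the exposed mean was 2654 ± 543 (SD, n = 4) and the ratio 2.48. By the naming of the array's maker, probes of an _s_at set can match more than 1 transcript, and the part of the Mt1 signal that comes from related transcripts was not tested.

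The exposed embryos differed more among themselves in Mt1 than in Mt2. On the log2 scale their range was 1.38 for Mt1 and 0.70 for Mt2, against a difference of 0.29 and 0.06 between the controls. Without exposed embryo 1 without NTD the range was 0.67 for Mt1 and 0.42 for Mt2. Exposed embryo 1 without NTD was highest and exposed embryo 1 with NTD lowest for both genes. Against the mean of the controls, embryo 1 without NTD had ratios of 4.53 for Mt2 and 4.76 for Mt1, and embryo 1 with NTD had 2.79 and 1.83. The 3 embryos between them did not keep their order, since exposed embryo 2 with NTD came before embryos 2 and 3 without NTD for Mt2, but embryo 3 without NTD came before it for Mt1. The third in order for Mt2, embryo 2 without NTD, was the fourth for Mt1.

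**Figure D2:**
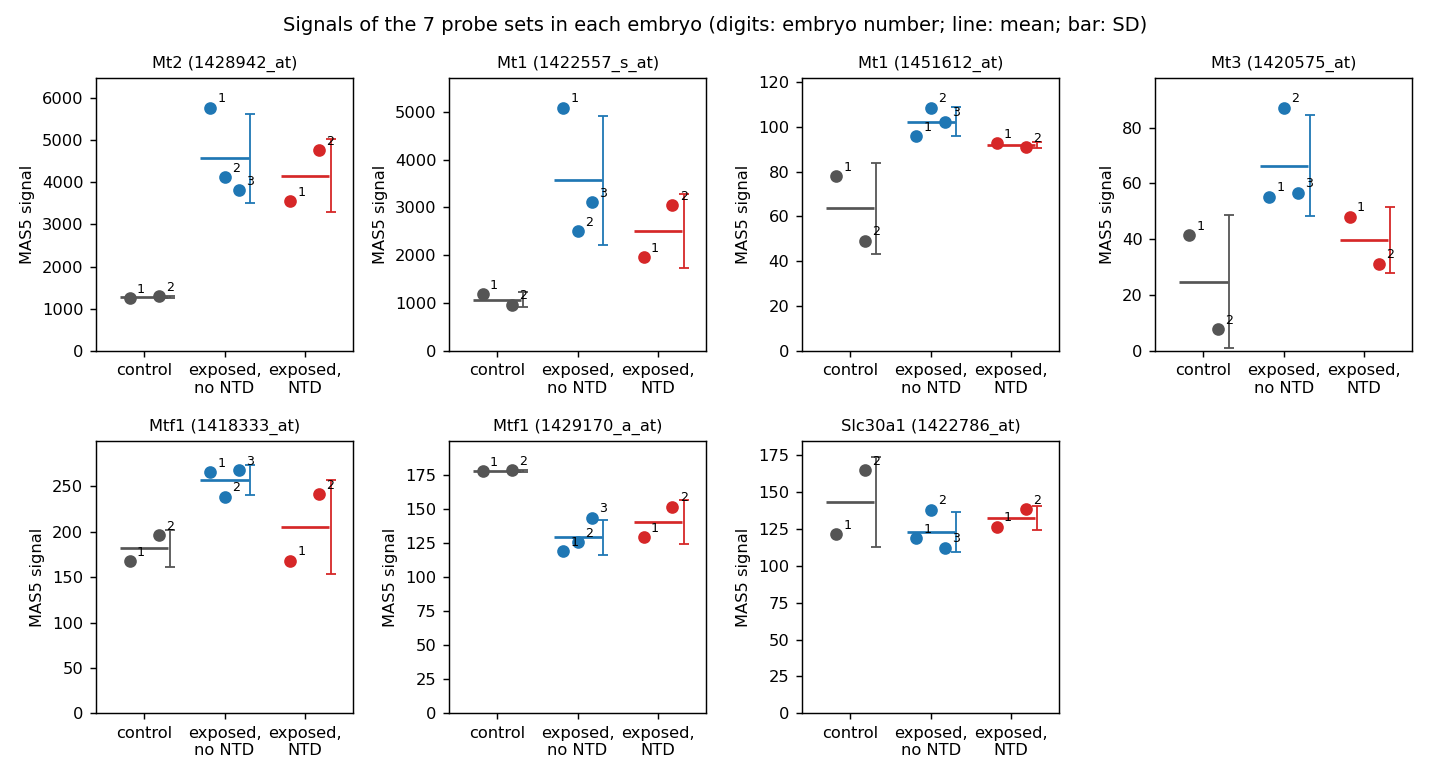
MAS5 signal (y axis, linear, from 0) of each of the 7 probe sets in the 2 controls, the 3 exposed embryos without NTD and the 2 with NTD, with 1 numbered point for each embryo, a line at the group mean and a bar of 1 SD. Mt2 and the brighter Mt1 probe set show no overlap between controls and exposed embryos, whereas Mt3, Slc30a1 and 1 of the Mtf1 probe sets do.

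The second probe set of Mt1 and that of Mt3 were dim. Mt1 probe set 1451612_at gave 78.0 and 49.0 in controls, 95.7, 108.5 and 102.3 in exposed embryos without NTD and 92.6 and 90.9 in those with NTD. All exposed embryos were above both controls, and the ratio of mean signals was 1.54. On every array it lay between the 20.2 and the 35.1 percentile of all probe sets, below the filter for testing. Mt3 (1420575_at), between the 4.6 and the 30.6 percentile, gave 41.5 and 7.78 in the controls, 55.2, 87.1 and 56.7 in exposed embryos without NTD and 48.0 and 31.2 in those with NTD. Its groups overlapped, since control 1 was above exposed embryo 2 with NTD, and its log2 difference of 1.55 was 0.35 without control 2.

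Mtf1, whose protein is the zinc-sensing activator of Mt1, Mt2 and Slc30a1, was measured by a pair of probe sets whose differences had opposite signs. Probe set 1418333_at gave 167.5 and 196.4 in controls, 265.9, 238.5 and 267.7 in exposed embryos without NTD and 168.2 and 241.4 in those with NTD. Exposed embryo 1 with NTD lay between the controls and the other 4 exposed embryos above them, with a log2 difference of 0.36 (standard error 0.21) between the group means. Probe set 1429170_a_at had 177.7 and 178.5 in the controls, 118.9, 125.7 and 143.8 in exposed embryos without NTD and 129.3 and 151.9 in those with NTD. All exposed embryos were below both controls, with a log2 difference of -0.42 (standard error 0.21). Signals of 1429170_a_at were low, between the 35.2 and the 46.8 percentile of all probe sets, and reached the 40th percentile on 4 of the 7 arrays. Those of 1418333_at lay between the 44.9 and the 56.0 percentile. The array therefore gave no single direction for Mtf1. Which transcripts each probe set detects was not tested.

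Slc30a1, the zinc exporter of the plasma membrane, showed no separation of the groups. Its probe set (1422786_at) gave 121 and 164 in the controls, 119, 138 and 112 in exposed embryos without NTD and 126 and 138 in those with NTD. Control 2 was the highest of the 7 embryos and control 1 lay within the exposed range. The log2 difference was -0.16 (standard error 0.24), and 0.06 without control 2.

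Over the 7 probe sets, 3 had all exposed embryos above both controls, 1 had all of them below and 3 overlapped. Of the 5 that passed the filter on low signals (the 40th percentile of the array in at least 2 arrays), 2 were above and 1 below, where 11.4% and 13.4% of all 14554 tested probe sets lay above and below in the same way. Of these 5 members, 1 (Mt2) was among the 16 probe sets called higher by limma at a Benjamini-Hochberg adjusted p under 0.05, 0.11% of those tested, and 0 were among the 9 called lower, 0.0618% of those tested. These counts are descriptions, since the members were chosen on this contrast. The call of Mt2 was lost in 4 of 18 alternatives, namely without control 1, without control 2, with the replicate number as a block and under the test for unequal variances. Mt1 was called in 3, namely with array quality weights, without exposed embryo 1 without NTD and without exposed embryo 1 with NTD.

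Exposed embryos with and without NTD overlapped in Mt2, in the brighter Mt1 probe set, in both probe sets of Mtf1 and in Slc30a1, and no difference passed the test. The mean Mt2 signal was 4567 ± 1057 (SD, n = 3) without NTD and 4161 ± 857 (SD, n = 2) with NTD, and the log2 difference of embryos with minus without NTD was -0.13 (standard error 0.19, 95% interval -0.56 to 0.31, limma adjusted p = 0.999). For the brighter Mt1 probe set the means were 3569 ± 1354 (SD, n = 3) and 2501 ± 776 (SD, n = 2), and the log2 difference was -0.48 (standard error 0.29, 95% interval -1.12 to 0.16, limma adjusted p = 0.999). Without exposed embryo 1 without NTD the Mt1 difference was -0.19, without exposed embryo 1 with NTD -0.16 and without exposed embryo 2 with NTD -0.80. The intervals are wide and do not show that the groups are alike. By the sex chromosome transcripts given below, these groups were also not balanced in sex, with exposed embryo 2 with NTD the only male among them. The sign of the Mt2 difference turned without exposed embryo 1 without NTD (0.056) and without exposed embryo 1 with NTD (0.086).

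The other tested members gave the same result between embryos with and without NTD. The log2 difference was -0.35 (standard error 0.22, 95% interval -0.84 to 0.14) for Mtf1 probe set 1418333_at and 0.12 (standard error 0.24, 95% interval -0.43 to 0.67) for 1429170_a_at. Without exposed embryo 1 with NTD these were -0.09 and 0.23, and without exposed embryo 2 with NTD -0.61 and 0.0029. For Slc30a1 the difference was 0.11 (standard error 0.28, 95% interval -0.51 to 0.73). It ran from 0.047 to 0.20 with each exposed embryo left out. Each of these 3 probe sets had a limma adjusted p of 0.999. The dim probe sets, below the filter percentile on every array, were not tested. Their log2 difference was -0.15 for Mt1 1451612_at and -0.75 for Mt3, with both embryos with NTD below all 3 without NTD. How many of all probe sets separate these few embryos in the same way was not counted, so this order is a description of low signals only. In this contrast 0 of 14554 probe sets were called by limma, 0.0% of those tested, and 440 had an unadjusted p under 0.05.

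**Figure D3:**
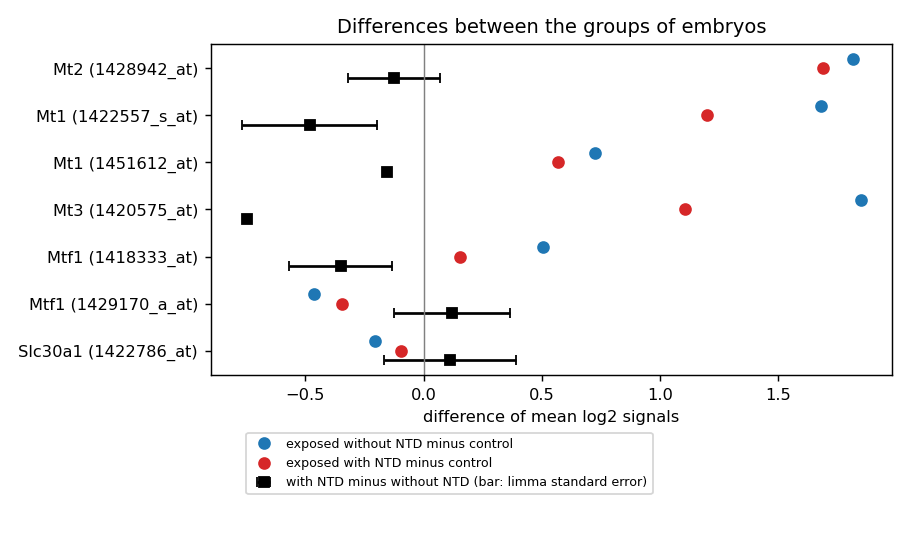
Differences of mean log2 signal (x axis) for each of the 7 probe sets, with circles for exposed embryos without and with NTD minus controls and squares for embryos with NTD minus those without. Bars are the limma standard error and are absent for the 2 probe sets below the filter. For Mt2 the embryos without and with NTD sit at 1.82 and 1.69 above the controls and for Mt1 (1422557_s_at) at 1.68 and 1.20.

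Genes that share metals, regulators or promoter elements with the members were examined in 6 lists, each gene by its brightest probe set. Of 45 genes tested, 0 rose and 0 fell at a limma adjusted p under 0.05. At an unadjusted p under 0.05, 6 were higher and 3 lower in exposed embryos, 13.3% and 6.67% of the 45, where 7.63% and 8.52% of all tested probe sets were higher and lower. Their median log2 difference was 0.12, against 0.00 over all tested probe sets, and the lowest limma adjusted p was 0.0979. The units differ, since all tested probe sets include dimmer and repeated ones of a gene, unlike the brightest probe sets of the 45 genes. Among the dimmer probe sets of these genes, 1 each of Klf9 (2.27), Atox1 (1.78) and Ndrg1 (1.03) had log2 differences above 1, all below the filter and not tested.

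Zinc carriers showed no common direction. Of the exporters of the Slc30a family other than Slc30a1, 0 of 6 tested were called, and their log2 differences ran from -0.10 to 0.16. The largest were those of Slc30a6 (0.16) and Slc30a3 (0.16) and, lower in exposed embryos, Slc30a5 (-0.10). Of the Slc39a importers, 0 of 9 tested were called, with a median of 0.20. Slc39a8, which brings zinc and manganese into cells, had a mean signal of 430 ± 23.6 (SD, n = 2) for controls against 734 ± 157 (SD, n = 5) for the exposed, a log2 difference of 0.75 (standard error 0.19, limma adjusted p = 0.117). A second probe set of Slc39a8 gave 0.19. Slc39a6 had a log2 difference of -0.38 (limma adjusted p = 0.196), but its second probe set gave -0.03. Slc39a13 had 0.33 (limma adjusted p = 0.502).

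Among other genes known as targets of MTF-1, 0 of 4 tested were called, with a median log2 difference of 0.24. Ndrg1, a differentiation- and stress-responsive gene, had a mean signal of 156 ± 31.7 (SD, n = 2) for controls against 254 ± 69.9 (SD, n = 5) for the exposed, a log2 difference of 0.68 (standard error 0.25, limma adjusted p = 0.231). A second tested probe set of Ndrg1 gave 0.84 (limma adjusted p = 0.299), and its untested dim ones gave 0.69, 0.72 and 1.03. Selenow, a selenoprotein, had a log2 difference of 0.40 (standard error 0.11, limma adjusted p = 0.139) with all exposed embryos above both controls. The second probe set of Selenow gave 0.63 (limma adjusted p = 0.132). Gclc, the catalytic subunit of the first enzyme of glutathione synthesis, had 0.09 (limma adjusted p = 0.792).

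Copper handling gave 0 of 10 called, with a median log2 difference of 0.21. Sco2 and Cox17, which deliver copper to cytochrome oxidase, had log2 differences of 0.60 (limma adjusted p = 0.440) and 0.48 (limma adjusted p = 0.339), and Atp7b, a copper-exporting ATPase, had 0.45 (limma adjusted p = 0.293). Among glucocorticoid-responsive genes and the receptor, 0 of 9 were called, with a median of 0.00. Zbtb16, a zinc finger repressor, had a mean signal of 96.0 ± 34.3 (SD, n = 2) for controls against 251 ± 88.5 (SD, n = 5) for the exposed, a log2 difference of 1.37 (standard error 0.32, limma adjusted p = 0.0979). A second probe set of Zbtb16 went the other way, with -0.51. Sgk1, a kinase, had -0.42 (limma adjusted p = 0.291), and the receptor gene Nr3c1 had -0.27 (limma adjusted p = 0.612).

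NRF2, the factor that binds antioxidant response elements, and its targets gave 0 of 8 called, with a median log2 difference of 0.10. Nqo1, a quinone reductase, had a mean signal of 163 ± 43.2 (SD, n = 2) for controls against 101 ± 25.1 (SD, n = 5) for the exposed, a log2 difference of -0.70 (standard error 0.32, limma adjusted p = 0.313). Hmox1, heme oxygenase, had 0.58 (limma adjusted p = 0.339), and Txnrd1, thioredoxin reductase, had -0.28 (limma adjusted p = 0.474). The dimmer probe sets of Txnrd1 had larger differences, -1.19 (limma adjusted p = 0.470) and -1.16 (limma adjusted p = 0.314). Both of the inducible enzymes Nqo1 and Hmox1 thus had overlapping groups and opposite signs.

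**Figure D4:**
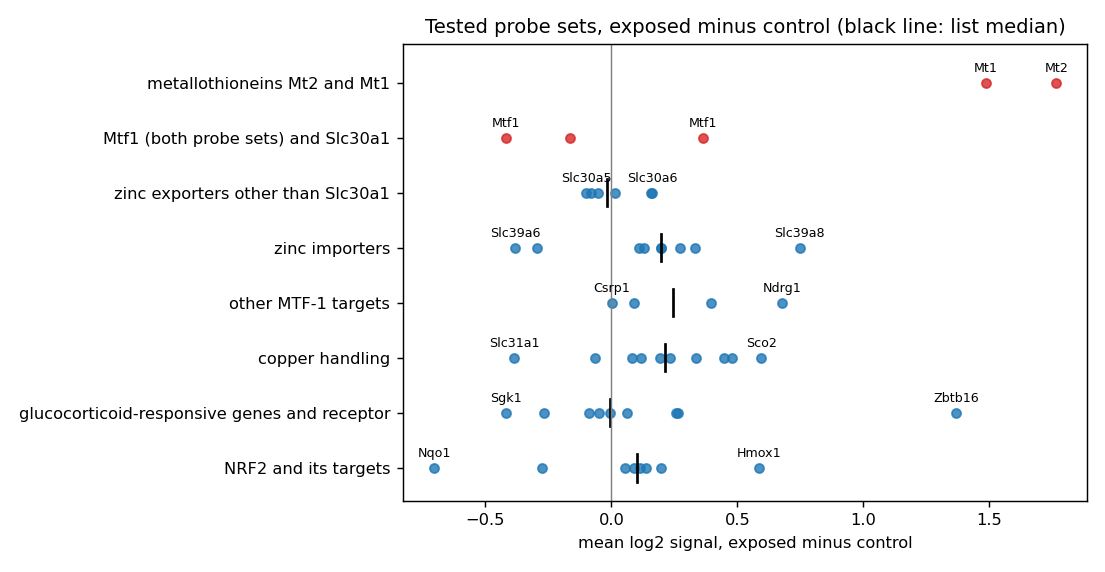
Log2 difference of exposed minus control embryos (x axis) for the tested probe sets of the members (red) and of the genes of 6 lists (blue), each listed gene by its brightest probe set, with the genes at either end of a row named and a black line at the median of each list. Mt1 and Mt2 lie at 1.49 and 1.77, and among the brightest probe sets of listed genes that of Zbtb16 alone exceeds 1.

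Profiles most like those of Mt2 and Mt1 were found by the root mean square difference of log2 signals over the 7 embryos, each profile centred on its own mean, among 13399 tested probe sets with 1 gene symbol. For Mt2 the nearest was Mt1 (0.27), followed by Uba7, an activating enzyme of a ubiquitin-like protein (0.292), Cpox, an enzyme of heme synthesis (0.296), Sall4, a zinc finger transcription factor (0.302), Bnip3, a mitochondrial protein (0.303), the glucose transporter Slc2a3 (0.308), the lactate transporter Slc16a3 (0.31) and the glucose transporter Slc2a1 (0.331). For Mt1 the nearest were Slc16a3 (0.152), Slc2a3 (0.217), Bnip3 (0.22), Mt2 (0.27), the keratin gene Krt19 (0.284), Slc2a1 (0.289), the prolyl hydroxylase gene Egln3 (0.292) and a second probe set of Slc2a3 (0.302). Apart from Mt1 and Mt2 themselves, 4 probe sets stood in both lists of 8, those of Slc16a3, Bnip3, Slc2a1 and 1 of Slc2a3. Mtf1 probe set 1418333_at ranked at 995 for Mt2 and at 671 for Mt1, and 1429170_a_at at 11642 and 11339. Slc30a1 ranked at 8894 and 9598. The controls are among the 7 embryos, so the difference between exposed and control embryos, on which the members were chosen, enters this measure. The probe sets in the lists of 8 had log2 differences of 0.94 to 1.77 in that comparison. The part of shared probes in the likeness of Mt1 and Mt2 was not tested.

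Transcripts of other cell types moved with part of these values. In whole embryos, more cells of a type and more RNA per cell cannot be told apart. Of 15 measured markers of yolk sac endoderm and liver, both known for high metallothionein, 12 were highest in exposed embryo 1 without NTD, the embryo with the highest Mt1 and Mt2. Their summed signal was 26313 in it, 3784 to 4395 in the controls and 1800.0 to 3059 in the other 4 exposed embryos. The sum is weighted to the brightest markers. Singly, 5 of the 15 markers were below both controls in all 4 of these embryos, and 0 were above both controls in all 4. By the looser measure of at least 1 of the 4 embryos, 6 were above both controls. The shares of all probe sets with these patterns were not counted. The Mt2 signals of the same 4 embryos were 3556 to 4767. The part of yolk sac and liver transcripts in the Mt1 and Mt2 values was not tested. Afp, the fetal serum protein and the brightest of these markers, had a signal of 6626 in exposed embryo 1 without NTD, 1500.2 to 2349 in the controls and 507 to 1494 in the other exposed embryos. The markers not highest in exposed embryo 1 without NTD were Alb, Hnf4a and Ahsg. Alb, the serum albumin gene, gave 226 in that embryo against 314 and 426 in the controls, and was below both controls in all exposed embryos.

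Markers of primitive red cells were higher in every exposed embryo. All 7 measured markers lay above both controls in all 5 exposed embryos, with a summed signal of 53314 to 55525 in controls and 66970 to 85014 in exposed embryos, a ratio of 1.31 of the means, and of 1.25 without exposed embryo 1 without NTD. Hba-x, an embryonic globin, gave 20641 and 21381 in the controls and 23404 to 31058 in the exposed embryos, a log2 difference of 0.27 (limma adjusted p = 0.272). The part of red cells in the Mt1 and Mt2 values was not tested. The summed signals of 6 measured placenta and decidua markers were 385 to 521 in controls and 401 to 760.4 in exposed embryos, with the highest again in exposed embryo 1 without NTD. Markers of the embryo itself were present throughout. The summed signals were 5733 to 5934 in controls and 4983 to 5994 in exposed embryos for neural tube, and 5501 to 5799 and 5449 to 6637 for heart muscle. For 5 somite markers they were 1309 to 1313 in controls and 1485 to 1876 in exposed embryos. This sum was higher in all exposed embryos, with a ratio of 1.29 of the means, but the markers had no common direction. Only Meox1, the brightest of them, was singly above both controls in all exposed embryos. Its log2 difference was 0.72 (limma adjusted p = 0.0597). Myog was below both controls in all exposed embryos, with 183 to 244 against 260 and 257 and a log2 difference of -0.26. Tcf15, Myf5 and Tbx6 overlapped. The somite sum is thus weighted to Meox1. The part of somite cells in the Mt1 and Mt2 values was not tested.

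**Figure D5:**
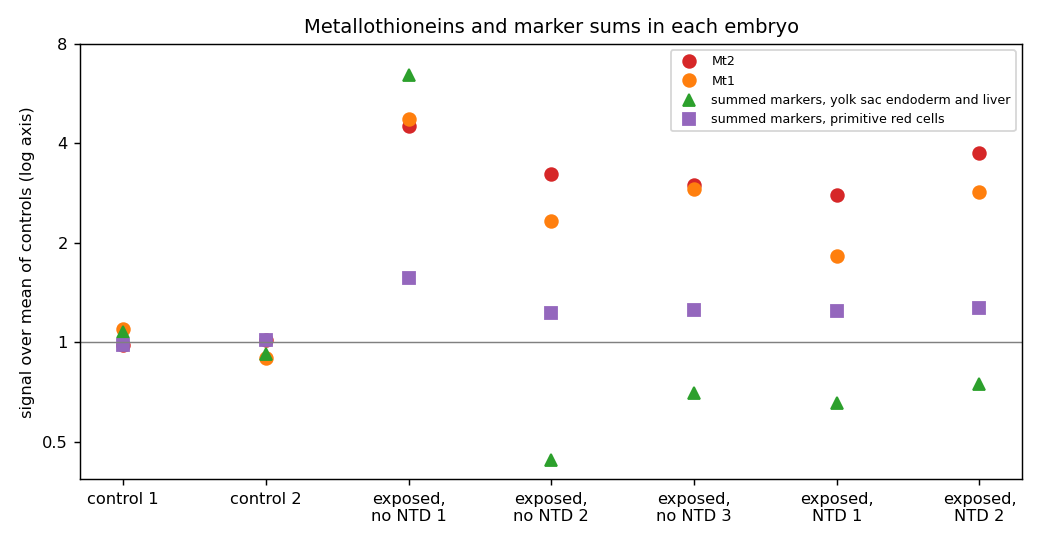
Signals of Mt2 and Mt1 (circles), the summed yolk sac endoderm and liver markers (triangles) and the summed primitive red cell markers (squares) in each of the 7 embryos, divided by the mean of the 2 controls (y axis, log scale). Among exposed embryos the triangle is above 1 in embryo 1 without NTD alone, and the circles of Mt2 lie at 2.79 to 4.53.

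Sex chromosome transcripts also differed between the groups. For Xist, which coats and silences an X chromosome, a probe set gave 181 and 165 in controls. Of the exposed embryos, embryo 2 with NTD had 256 and the remaining 4 had 6074 to 7533. Exposed embryo 2 with NTD, which resembled the controls in Xist, had 3.74 times their mean in Mt2 and 2.85 times in Mt1. Eif2s3y, a gene of the Y chromosome, gave 227 and 203 in controls and 245 in exposed embryo 2 with NTD. The other exposed embryos had 0.549 to 2.76. By these transcripts both controls and exposed embryo 2 with NTD were male, and the other exposed embryos female. Sex thus largely went with exposure. Embryos with and without NTD were not balanced in sex either, since the only exposed male was embryo 2 with NTD. The labels do not state the sex of any embryo, and the part of sex in the Mt1 and Mt2 values was not tested.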

How the data were processed

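Total RNA of 7 whole FVB embryos was labelled and hybridized to 7 one-colour arrays. Each deposited value is a MAS5 signal intensity on a linear scale, which the authors derived from matched and mismatched probes and scaled per array. No source used here gives the MAS5 version. Detection calls played no part. The table lists 22690 probe sets, of which 64 controls were left out, and the annotation gives 1 gene symbol for 20393, several for 691 and none for 1606.

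A probe set entered the tests if it reached the 40th percentile of its array on at least 2 arrays (14554 did). Tests were run on log2 of the signal, with values under 1 set to 1. limma 3.58.1 in R 4.3.3 (lmFit, eBayes with a trend) compared 5 exposed with 2 control embryos and, in a fit of 3 groups, embryos with and without NTD, with Benjamini-Hochberg adjustment over all tested probe sets. The code was tested on simulated data. Members and gene lists were chosen with earlier results of these data known. Named were all members, 3 genes of largest difference from each list and any called, the 8 most similar profiles to Mt2 and Mt1, and the brightest cell type markers and those highest in the embryo that stood apart. From each marker list only the genes that a result turned on are given singly. Alternatives were normalization by quantiles or by centring on the median, another floor, an offset, other filters, no trend, array quality weights, a replicate block, Welch's test, each embryo left out and only exposed embryos without NTD. Replicate numbers do not pair embryos, which came from different dams or were littermates.

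Promoter sequences are those of RefSeq on GRCm38.p6, a build used for positions only. All 5 genes were matched by symbol. Tables were handled in Python 3.11.15 (pandas 2.3.3, NumPy 2.4.6) and figures drawn with Matplotlib 3.10.9. The number of arrays limits the precision.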

Additional observations from a re-analysis of the deposited data

Results flagged for a closer look

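Among the 5 exposed embryos, some values had 1 embryo far from the other 4, measured as the gap to its nearest neighbour divided by the whole range. The ratio was taken on log2 signals for single probe sets and on linear sums for marker lists. The critical ratio is 0.71, and chance alone passes it in about 1 of 20 groups. Of the 7 probe sets of the members 1 passed, Mtf1 1418333_at, with a ratio of 0.752 and exposed embryo 1 with NTD low, and on linear signals it did not pass (0.707). The summed markers passed for yolk sac endoderm and liver (0.949), placenta and decidua (0.738) and primitive red cells (0.891), each with exposed embryo 1 without NTD high, and for heart muscle (0.786), with exposed embryo 3 without NTD low. On log2 sums placenta and decidua did not pass (0.671), and the other 3 did (0.802, 0.879 and 0.802). Xist (0.936) and Eif2s3y, a gene of the Y chromosome (0.815), passed with exposed embryo 2 with NTD apart, and Eif2s3y had signals of 245 in it, 227 and 203 in the controls and 0.549 to 2.76 in the other exposed embryos. For Mt2 the ratio was 0.396 and for the brighter Mt1 probe set 0.513, both under the critical ratio.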

How the results depend on the processing

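Over 17 alternatives the log2 difference of exposed minus control embryos was 1.66 to 1.84 for Mt2 and 1.29 to 1.68 for the brighter Mt1 probe set. It was 0.25 to 0.50 for Mtf1 1418333_at and -0.47 to -0.31 for 1429170_a_at, and each of these ranges kept its sign. Only the 2 exposed embryos with NTD against the controls is not among the 17. That comparison gave 1.69 for Mt2, 1.20 for Mt1, 0.15 for Mtf1 1418333_at and -0.35 for 1429170_a_at. Its values for Mt1 and Mtf1 1418333_at lie below the ranges given. The dim probe sets and Slc30a1 depended on single controls. Without control 1 the value was 1.00 for Mt1 1451612_at, 2.76 for Mt3 and -0.38 for Slc30a1, and without control 2 it was 0.33, 0.35 and 0.06.

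The number of probe sets called between exposed and control embryos, 25 in all, was 50 with log2(signal + 50), 8 without the filter, 10 without the trend, 491 with array quality weights and 0 with Welch's test (2651 at an unadjusted p under 0.05). With each embryo left out it ranged from 0 to 58, with 0 without control 2 (1396 unadjusted), 1 without control 1, 6 without exposed embryo 3 without NTD, 10 without exposed embryo 2 with NTD, 58 without exposed embryo 1 with NTD and 40 without exposed embryo 1 without NTD. With the replicate number as a block it was 0 (2013 unadjusted by limma). Correlations of the deviations of same-numbered embryos ran from -0.248 to 0.0264 over the tested probe sets. In a group of 2 embryos the deviations from the group mean mirror each other, so this range cannot show whether the numbers pair embryos. That they do not follows from the design, with exposed and control embryos from different dams. Between embryos with and without NTD, 0 were called, and 0 to 2 with each embryo left out, the 2 without exposed embryo 1 with NTD. The Mt2 difference of embryos with minus without NTD was -0.34 to 0.086 with each embryo left out, and its sign turned when embryo 1 without NTD (0.056) or embryo 1 with NTD (0.086) was left out. Of the genes in the 6 lists 0 were called, and 2 with array quality weights, Slc39a8 and Zbtb16. The cause of these changes was not tested. With 2 controls from 1 litter, a difference between litters has the same form as one between pregnancies.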
